A study of Mus musculus with 16 samples.

Results

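The mRNAs that sediment above polysomes were compared between hepatocytes depleted of eIF6 and hepatocytes with a scramble shRNA, both stimulated with insulin. The comparison was defined by the labels of the arrays and used the 4 arrays of subpolysomal RNA from each shRNA, which are 8 of the 16 arrays of the study. The other 8 arrays hold polysomal RNA of cells with the same shRNAs and treatment and are used here to show which changes differ between the fractions. AML12 is a non-tumourigenic line of mouse hepatocytes. All cells carried an inducible shRNA from a lentiviral vector, had been selected with puromycin, received doxycycline to switch the shRNA on, and then received 100 nM insulin for 1 h. Another field of the labels gives the insulin dose in mM, and the growth medium of all cells also held insulin, transferrin, selenium and dexamethasone. In scramble cells the shRNA has no intended target, and in eIF6 shRNA cells it targets the mRNA of eIF6. The methods list more than 1 shRNA sequence against eIF6, and the labels do not say which of them these cells carried. The methods describe the 4 arrays of a group as biological replicates.

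When a lysate is spun through a sucrose gradient, mRNAs bound by many ribosomes move to the bottom of the tube as polysomes. The subpolysomal fraction holds the lighter material, which is free messenger ribonucleoprotein, the 40S and 60S ribosomal subunits and the 80S ribosome. An mRNA can therefore be more or less abundant there because the cell holds more or less of it or because it moved between the fractions. eIF6 binds the 60S subunit and prevents it from joining the 40S subunit before it is needed. It also takes part in the making of 60S subunits, and in the liver it acts downstream of insulin. The comparison addresses which mRNAs differ outside polysomes once eIF6 is depleted under insulin.

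One-colour Agilent arrays of 60-base probes were used, with 1 array per RNA. The scanner software marks a spot as well above background when its signal clears the local background, and a gene is called detected here when at least 1 of its kept probes has that mark. Values are log2 signals after quantile normalization, with the kept probes of a gene averaged, so that 1 unit is a doubling of signal. Levels are comparable between arrays for a gene but not between genes, since probes differ in brightness. A change is always eIF6 shRNA minus scramble in log2 units, and it is given with its standard error (SE). Changes were tested with limma, and a gene is called higher or lower at a Benjamini-Hochberg adjusted p under 0.05 over all genes tested.

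Between 20556 and 22488 probes were well above background on the scramble arrays and between 20177 and 24953 on the eIF6 shRNA arrays, where replicate 2 gave the highest number and the other 3 lay between 20177 and 21483. No spot was saturated. Of 12 hepatocyte markers, 10 were detected on all 4 arrays of each group, among them Hnf4a, Apob and Krt18, while Apoa1 was detected on no subpolysomal array and Alb on 0 scramble and 2 eIF6 shRNA arrays. Of the 12, Foxa2 was called lower and Cebpa and Ttr higher. Summed levels of markers add linear signals and are given on the log2 scale, so that the brightest marker weighs most. The sum of the hepatocyte markers, 18.16 to 18.28 in scramble cells and 18.23 to 18.35 in eIF6 shRNA cells, is mostly that of Krt18. Of 12 markers of hepatic stellate cells or fibroblasts, 6 were detected on all 8 arrays and 7 were called lower, whereas the stellate cell markers Lrat and Reln, and Lum, were on no array. Their summed level was 16.87 to 16.97 in scramble cells and 15.42 to 15.86 in eIF6 shRNA cells, with no overlap. Of the macrophage and endothelial markers, Lyz2, Cdh5, Lyve1, Stab2 and Tek were on no array, whereas Csf1r, Cd68, Kdr and Pecam1 were on all 8. The summed macrophage markers lay at 9.47 to 9.72 with scramble shRNA and 9.11 to 9.37 with eIF6 shRNA, with no overlap, and Csf1r and Aif1 were called lower. The summed cholangiocyte markers lay at 13.68 to 13.82 and 13.92 to 14.08, also with no overlap, whereas the summed endothelial markers overlapped (10.88 to 11.79 and 11.28 to 11.83). The part of these markers in the results below was not tested. In RNA from a whole culture, fewer cells of a kind and less RNA per cell cannot be told apart.

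The targeted mRNA, Eif6, did not differ between the shRNAs in this fraction. Its log2 signal was 11.53, 11.55, 11.65 and 11.66 in scramble cells and 11.73, 11.49, 11.74 and 11.50 in eIF6 shRNA cells. The groups overlapped, and the change was 0.02 (SE 0.08, adjusted p = 0.92). On polysomes the signal was 12.96, 12.94, 12.96 and 12.94 with scramble shRNA against 11.92, 12.00, 11.85 and 11.81 with eIF6 shRNA, a change of -1.05. The subpolysomal change lay above the polysomal change by 1.07 (SE 0.11, adjusted p = 0.00014). The 3 probes of Eif6, which lie on chromosome 2 of mm9 between positions 155645718 and 155650961, had subpolysomal changes of -0.02, 0.02 and 0.04.

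Of 19365 genes tested, 2390 (12.3%) were lower and 2294 (11.8%) were higher in subpolysomes of eIF6 shRNA cells. Large falls outnumbered large rises, although single changes over all genes tested ranged from -4.24 to 7.73. Among the genes called lower, 742 fell at least 2-fold and 125 at least 4-fold, against 354 and 38 of the genes called higher. The median change of the genes called lower was -0.69, that of the genes called higher was 0.59, and that of all genes was 0.025. When the arrays were scaled to their spike-in probes, whose mean log2 signal ranged from 12.59 to 13.12, the median of all genes moved to -0.23, 346 genes were called lower and 44 higher. The directions below are therefore relative to the bulk of genes, and without eIF6 shRNA replicate 2 the counts were 2016 lower and 1893 higher.

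Among genes detected on all 8 arrays that have a gene name and not only a clone or locus identifier, the largest fall was that of Il6, which encodes the cytokine interleukin 6. Its log2 signal was 8.22, 8.08, 8.27 and 7.96 in scramble cells and 4.84, 3.94, 5.42 and 5.22 in eIF6 shRNA cells. All 4 scramble arrays lay far above the eIF6 shRNA arrays, and the change was -3.28 (SE 0.23, adjusted p = 1.3e-07), a 9.72-fold difference. Hoxb2, a homeobox transcription factor of positional identity, had 9.78, 9.66, 9.71 and 9.83 against 6.63, 6.70, 6.62 and 6.62. The arrays within each group were almost level, and the change was -3.10 (SE 0.14, adjusted p = 2.8e-09). Slc43a1, an amino acid transporter, fell by 3.06 (SE 0.21), from 6.96 to 7.25 in scramble cells to 3.21 to 4.59 in eIF6 shRNA cells. Mark1, a microtubule-affinity regulating kinase, fell by 2.73 (SE 0.17), and Tshz3, a zinc finger transcription factor, by 2.66 (SE 0.23). Slpi, a secreted inhibitor of leukocyte proteases, fell by 2.67 (SE 0.14), from 9.78 to 10.03 to 6.98 to 7.42.

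Another 4 of the 10 largest falls among named genes detected on all 8 arrays belonged to the late cornified envelope genes, which lie in a cluster on chromosome 3 and encode small proteins of the skin surface. Lce1g changed by -3.13 (SE 0.21), Lce1f by -2.77 (SE 0.13), Lce1c by -2.77 (SE 0.12) and Lce1i by -2.76 (SE 0.26). These genes are near-identical in sequence, so their probes may share signal and the 4 values are not independent. Lce1f had the brightest signal, 11.85 to 11.96 in scramble cells and 8.82 to 9.33 in eIF6 shRNA cells. On polysomes all 4 fell as well, and the polysomal fall was larger for Lce1f (difference 0.82, adjusted p = 0.043) and for Lce1c (difference 0.88, adjusted p = 0.015).

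In the same set of genes, the largest rise was that of Mlh3, which encodes a protein of DNA mismatch repair and meiotic crossing over. Its log2 signal was 5.56, 5.57, 5.63 and 4.94 in scramble cells and 8.23, 8.27, 8.13 and 8.28 in eIF6 shRNA cells. The change was 2.81 (SE 0.13, adjusted p = 2.3e-09), a 6.99-fold difference. On polysomes Mlh3 rose by 1.43, and the subpolysomal rise was larger by 1.38 (SE 0.18, adjusted p = 0.0008). Wnt4, a secreted Wnt ligand, had 9.93, 10.10, 10.16 and 10.25 against 11.97, 12.20, 11.97 and 12.17. It rose by 1.97 (SE 0.12, adjusted p = 4e-08) and by 2.12 on polysomes, and the difference between the fractions was not called.

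Among the other large rises, Mal2, which works in the transport of proteins to the apical membrane, rose by 2.13 (SE 0.14), from 7.04 to 7.42 to 9.15 to 9.45. Muc13, a transmembrane mucin, rose by 2.02 (SE 0.27), and its scramble arrays lay between 3.85 and 5.06 against 6.17 to 6.85. Guca2b, which encodes the intestinal peptide uroguanylin, rose by 1.85 (SE 0.14), and Dcdc2a, a doublecortin-domain protein of cilia and microtubules, rose by 2.01 (SE 0.12). Mreg, which encodes the organelle transport protein melanoregulin, rose by 2.11 (SE 0.15), Aspa, the enzyme aspartoacylase, by 1.94 (SE 0.17), and Il2rg, the common gamma chain of interleukin receptors, by 1.89 (SE 0.30). Orm3, which encodes an orosomucoid acute phase protein, rose by 2.28 (SE 0.16), from 4.75 to 4.98 to 7.10 to 7.23. Its relatives Orm1 and Orm2, named here after their values were seen, changed by 1.56 and 1.95, and the probes of these near-identical genes may share signal.

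**Figure D1:**
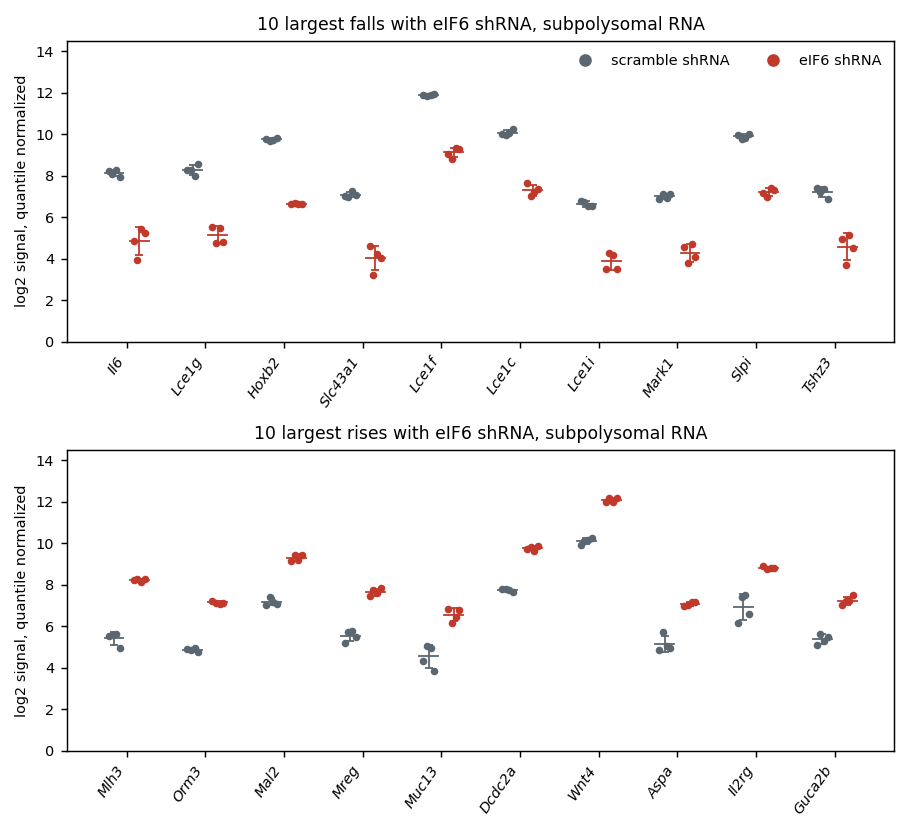
Quantile normalized log2 signal (y axis) of the 10 genes with the largest falls (top) and the 10 with the largest rises (bottom) among called genes detected on all 8 subpolysomal arrays without overlap. Points are arrays (grey scramble, red eIF6 shRNA), horizontal lines are means and bars are SD (n = 4 per group). For Hoxb2 the eIF6 shRNA arrays lie between 6.62 and 6.70, below all scramble arrays, and for Il6 they spread from 3.94 to 5.42.

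A pair of genes with scramble arrays far apart from each other lay outside this choice and is named after its values were seen. Ccdc81, a coiled-coil domain gene, had 0.98, 4.76, 4.69 and 0.86 in scramble cells and 10.55, 10.51, 10.55 and 10.59 in eIF6 shRNA cells. On polysomes all 4 scramble arrays lay between 0.84 and 0.88, against 9.24 to 9.67 with eIF6 shRNA. In linear signal, scramble replicate 2 reached 1.81% of the eIF6 shRNA level in subpolysomes. Il1rapl1, an interleukin 1 receptor family member, had 2.11, 4.99, 3.54 and 1.34 against 7.99, 7.94, 7.83 and 8.03, and its polysomal scramble arrays lay between 1.10 and 1.26. Thus scramble replicates 2 and 3 were the higher arrays for both genes in subpolysomes, and no such step was seen on polysomes.

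Some genes were detected on all 4 arrays of 1 shRNA and on none of the other. With scramble shRNA only there were 67 such genes, 63 of them called lower. With eIF6 shRNA only there were 19, of which 18 were called higher. Since such a gene has to differ, these counts describe the choice and are no test. The fold against the undetected group is a lower bound, which sets the bright group's mean against the level at which probes clear the background on the dim arrays or the measured signal, whichever is higher. This bound was at least 2-fold for 44 of the 67 genes and for 11 of the 19. Many of these genes had signal elsewhere, since 50 of the 67 were detected on at least 1 polysomal array of eIF6 shRNA cells and 9 of the 19 on at least 1 polysomal array of scramble cells. Single arrays weighed on the counts. The genes seen with scramble shRNA only numbered 126 without scramble replicate 1 and 143 without eIF6 shRNA replicate 2, and those seen with eIF6 shRNA only numbered 48 without eIF6 shRNA replicate 1.

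Lmx1a, a LIM homeobox transcription factor, had 7.24, 5.89, 5.82 and 5.61 in scramble cells and 2.88, 3.25, 3.65 and 3.52 in eIF6 shRNA cells. Depleted cells had at least 5.63-fold lower signal (measured means 6.14 and 3.33, adjusted p = 6.2e-06), with scramble replicate 1 above the other 3. Serpinb2, the inhibitor of urokinase-type plasminogen activator known as PAI-2, had 6.04, 5.67, 5.41 and 5.65 against 2.69, 2.61, 3.30 and 3.17. The bound was 4.66-fold (measured means 5.69 and 2.94, adjusted p = 1.9e-06), and eIF6 shRNA cells had no detected signal on polysomes either. Pogk, a protein with a transposase-derived domain, was at least 4.56-fold lower (measured means 5.66 and 2.89, adjusted p = 2.1e-07). Fam212a was at least 4.33-fold lower (measured means 5.59 and 3.14, adjusted p = 1.6e-05). For Kcnmb4, a regulatory subunit of a calcium-activated potassium channel, the bound was 4.74-fold (measured means 5.72 and 2.25 for its brighter probe, and adjusted p = 4.9e-05 for the mean over its 2 probes). For Ptplad2, a dehydratase of very-long-chain fatty acid synthesis, it was 4.71-fold (measured means 5.82 and 3.41 for its brighter probe, and adjusted p = 2.2e-06 for the mean over its 2 probes), and this gene was detected on all 4 polysomal arrays of eIF6 shRNA cells.

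In the other direction, Sbk3, which encodes a member of the SH3-binding kinase family, stood out. Its signal was 2.07, 3.32, 2.72 and 2.22 in scramble cells and 7.47, 7.36, 7.51 and 7.60 in eIF6 shRNA cells, and it was at least 16.5-fold higher with eIF6 shRNA (measured means 2.58 and 7.48, adjusted p = 2.3e-09). Stx19, a syntaxin of vesicle fusion in epithelia, had 3.04, 2.08, 3.00 and 1.95 against 5.35, 5.67, 5.45 and 5.54, at least 4.22-fold higher (measured means 2.52 and 5.50, adjusted p = 3.6e-07). Neither gene was detected on any polysomal array of scramble cells, and both were detected on all polysomal arrays of eIF6 shRNA cells. Slc13a2, a sodium-coupled citrate and dicarboxylate transporter, was at least 3.77-fold higher (measured means 3.33 and 5.45, adjusted p = 5.5e-07). Ncf4, a subunit of the NADPH oxidase of phagocytes, was at least 3.32-fold higher (measured means 2.90 and 5.17, adjusted p = 1.4e-06), and Kcnt2, a sodium-activated potassium channel, at least 3.23-fold higher (measured means 1.49 and 5.12, adjusted p = 3.6e-08).

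**Figure D2:**
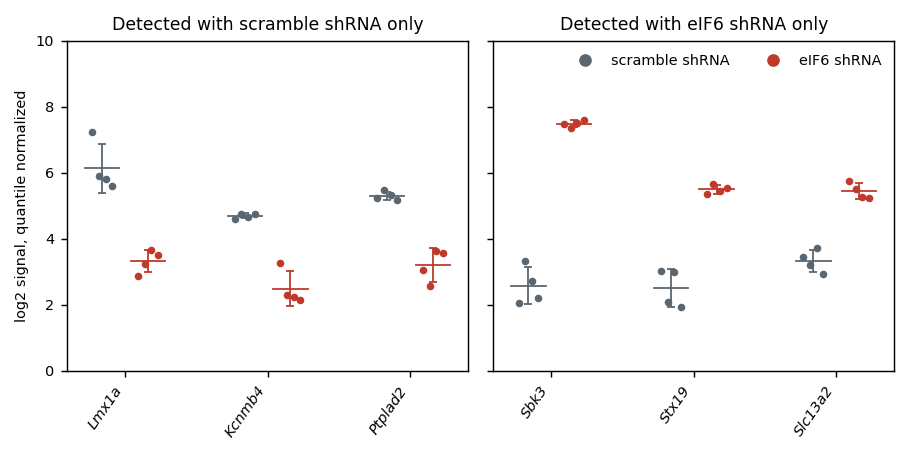
Quantile normalized log2 signal (y axis) of the 3 genes with the largest bound among those detected with scramble shRNA only (left) and with eIF6 shRNA only (right) in subpolysomes. Points are arrays, horizontal lines are means and bars are SD (n = 4 per group), and Sbk3 lies between 7.36 and 7.60 with eIF6 shRNA against 2.07 to 3.32 with scramble shRNA.

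The replication-dependent histone genes fell together in subpolysomes. These genes supply the histones that package new DNA in S phase, and most of their mRNAs end in a conserved stem-loop in place of a poly(A) tail. The labelling primer of the one-colour protocol named in the labels carries oligo(dT), so what part of each histone mRNA was labelled is not known. Of 47 members tested, 34 were called lower (72.3%, against 12.3% of all genes) and 0 higher, and 44 had a change below 0. The median change was -0.69 against 0.025 for all genes. Scaling to the 75th percentile left 20 lower and 0 higher with a median of -0.64, scaling to the spike-in probes left 5 lower and 0 higher with a median of -0.90, and the fit without eIF6 shRNA replicate 2 gave 30 lower and 0 higher. On polysomes the median change of the same genes was -0.16, with 5 called lower and 4 higher.

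The stem-loop was searched in the sequences of all 39429 probes on both strands as GG, 2 bases of any kind, C, TTTT, 1 base of any kind, AG, 1 base of any kind and GCC, read without gaps over 16 bases. It was found in the probe sequence itself for 5 probes (0.0127%), all of them of replication-dependent histone genes, and in the reverse complement of 1 probe. These 5 are shown because they hold the stem-loop. It starts between base 39 and base 42 of the 60 in 4 of the probes and at base 7 in the Hist2h2aa2 probe, most of which lies past it. The motif is in capitals, with up to 5 bases of the probe on each side.
Hist1h3a: ccaaaGGCTCTTTTCAGAGCCaca
Hist2h2aa2: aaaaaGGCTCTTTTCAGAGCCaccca
Hist2h2bb: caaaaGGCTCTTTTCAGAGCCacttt
Hist1h3i: caaaaGGCTCTTTTCAGAGCCccctc
Hist1h4m: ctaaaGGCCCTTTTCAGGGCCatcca
The probes lie in the mm9 build at chr13:23853756-23853815 (Hist1h3a), chr3:96043669-96043728 (Hist2h2aa2), chr3:96074056-96074115 (Hist2h2bb), chr13:21874784-21874843 (Hist1h3i) and chr13:21903960-21904019 (Hist1h4m).

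All 5 probes had lower signal with eIF6 shRNA, and the 2 groups of arrays did not overlap at any of them. A lack of overlap was common in these data. Of 19365 genes tested, 1751 called lower and 1808 called higher were detected on all 8 arrays without overlap. The Hist2h2bb probe read 14.41 to 14.97 in scramble cells and 13.77 to 14.10 in eIF6 shRNA cells, a change of -0.85. The Hist1h3a probe changed by -0.85, the Hist1h3i probe by -0.80 and the Hist1h4m probe by -0.90. The Hist2h2aa2 probe, at 9.33 to 9.46 against 9.03 to 9.26, changed by -0.24.

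The falls covered all classes of histone. Of the H2A genes 10 of 14 were called lower, of the H2B genes 7 of 10, of the H3 genes 6 of 8, of the H4 genes 7 of 9 and of the linker histone H1 genes 4 of 6. The median changes of the classes were -0.47, -0.78, -0.69, -0.75 and -0.63. Members of a class are near-identical and their probes may share signal. Hist1h2ac, an H2A gene, fell most among the members detected on all arrays, with 6.99, 6.97, 7.09 and 6.36 in scramble cells and 5.00, 4.22, 4.52 and 4.96 in eIF6 shRNA cells. Its change was -2.18 (SE 0.24, adjusted p = 9.6e-06) against -0.13 on polysomes, where it was detected on 2 scramble arrays and 0 eIF6 shRNA arrays. Hist3h2ba, an H2B gene, had 6.31, 6.36, 6.98 and 6.63 against 4.44, 4.74, 4.70 and 5.16, a change of -1.81 (SE 0.22, adjusted p = 2.3e-05) against 0.21 on polysomes. The difference between the fractions was called for Hist3h2ba, which was detected on all 16 arrays (-2.02), and the difference of Hist1h2ac rests on polysomal signal near background. In all, 9 of the 47 members had a called difference with the subpolysomal change below, Hist1h2ac among them, against 0.403% of all genes.

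Histone variants that are made outside S phase moved less. Of 11 replacement histone genes, 4 were called lower and 1 higher, against 12.3% and 11.8% of all genes, with a median change of -0.31. H2afx, the variant that is phosphorylated at DNA breaks, fell by 0.73 (SE 0.15), while H2afy, which encodes macroH2A, rose by 0.25 (SE 0.08), a direction that turned to -0.033 with spike-in scaling. Cell cycle and DNA replication genes also fell in subpolysomes, but less than the replication-dependent histone genes. Of 72 tested, 18 were called lower (25%, against 12.3% of all genes) and 2 higher (2.78%, against 11.8%), with a median of -0.14. Unlike the histone genes, they fell at least as much on polysomes, where 20 were called lower and 0 higher with a median of -0.26. The difference between the fractions was called for 0 of them. E2f2, a transcription factor of S-phase entry, fell by 0.87 (SE 0.07), from 10.21 to 10.30 to 9.28 to 9.42, and Cdkn2a, which encodes p16INK4a and p19ARF, fell by 0.88 (SE 0.10). Among the genes called higher were Gins3, a subunit of the replicative helicase (0.59, SE 0.16), and Rfc4, a subunit of the clamp loader (0.26, SE 0.08), and the latter reversed to -0.0067 with spike-in scaling.

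**Figure D3:**
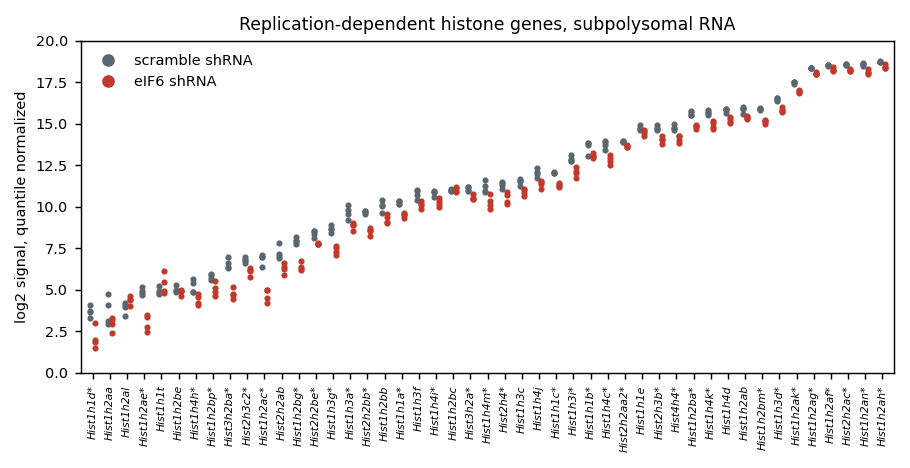
Quantile normalized log2 signal (y axis) of the 47 replication-dependent histone genes tested, ordered by their level in scramble cells, with asterisks on the 34 called lower. Points are the 4 subpolysomal arrays of each shRNA (grey scramble, red eIF6 shRNA), and the red points lie below the grey points for most genes across the whole range of signal.

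Genes of the extracellular matrix and of mesenchymal cells made up another large group of falls. Collagen chains form the fibrils and networks of the matrix, and their median change was -0.42. Of 30 tested, 14 were called lower (46.7%, against 12.3% of all genes) and 3 higher (10%, against 11.8%). Col6a3, a chain of the microfibrillar collagen VI, had 9.80, 9.72, 9.78 and 9.78 in scramble cells and 7.50, 7.33, 7.77 and 7.69 in eIF6 shRNA cells. Its change was -2.19 (SE 0.10, adjusted p = 2.3e-09), smaller than the polysomal change of -2.94 (difference 0.74, adjusted p = 0.014). Col12a1, a fibril-associated collagen, fell by 2.12 (SE 0.21). The fibrillar collagen gene Col1a1 had 14.47, 14.34, 14.54 and 14.34 against 12.19, 12.52, 12.62 and 12.91 and fell by 1.86 (SE 0.24, adjusted p = 4.3e-05). The 3 collagen genes called higher were Col23a1 (1.14), Col15a1 (0.84) and Col27a1 (0.54), of which the first pair is named after its values were seen. Col23a1 was detected on 0 scramble and 2 eIF6 shRNA arrays.

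Of 24 enzymes that modify or cross-link collagen, 10 were called lower (41.7%, against 12.3% of all genes) and 4 higher (16.7%, against 11.8%). Their median was -0.39. Lox, lysyl oxidase, which cross-links collagen and elastin, had 8.50, 8.33, 8.38 and 8.51 against 7.14, 6.53, 7.27 and 6.81. It fell by 1.49 (SE 0.17, adjusted p = 1.5e-05) in subpolysomes and by 3.49 on polysomes, and the difference of 2.00 was called (adjusted p = 0.00049). Adamts2, which trims procollagen, fell by 1.40 (SE 0.22), with scramble replicate 4 at 8.81 above the other scramble arrays at 7.74 to 8.01. Loxl2, a relative of lysyl oxidase, rose by 0.56 (SE 0.17), and Tgm2, tissue transglutaminase, by 0.52 (SE 0.12). In 5 of the 24 genes the subpolysomal change lay above the polysomal change by the test of the difference, against 1.11% of all genes.

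Among 54 matrix glycoproteins and proteoglycans, 21 were called lower (38.9%, against 12.3% of all genes) and 3 higher (5.56%, against 11.8%). Their median was -0.50. Fbn1, which encodes the microfibril protein fibrillin 1, had 8.44, 8.46, 8.48 and 8.61 against 5.73, 5.89, 6.42 and 6.27, a change of -2.42 (SE 0.16, adjusted p = 5.9e-08). Thbs1, thrombospondin 1, a matricellular protein that activates TGF-beta, fell by 2.36 (SE 0.23), and its scramble replicate 4 at 12.49 lay below the other 3 at 13.16 to 13.36. Among the genes called higher were Spp1, osteopontin (0.84, SE 0.25), and Lama5, a laminin chain (0.28), which is named after its value was seen. Of 30 metalloproteinases and inhibitors, 8 were lower (26.7%) and 1 higher (3.33%), with a median of -0.23. Adam19, a membrane-bound sheddase, fell by 1.84 (SE 0.10), from 8.38 to 8.57 to 6.34 to 6.88, and Adamts9 rose by 0.91 (SE 0.19).

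A wider list of stellate cell and fibroblast genes had 13 of 21 called lower (61.9%, against 12.3% of all genes) and 0 higher. Its median was -1.07, which was -0.40 with normexp background correction. The list shares collagen genes with the lists above. Pdgfrb, a receptor for platelet-derived growth factor that marks pericytes and stellate cells, had 9.78, 9.68, 9.72 and 9.55 against 7.53, 7.21, 7.54 and 7.62, a change of -2.21 (SE 0.16, adjusted p = 1.5e-07). On polysomes the median of the list was -2.06. The difference between the fractions was called for Thy1, Col1a2, Tagln and Acta2, all with a smaller fall in subpolysomes. With scaling to the 75th percentile 13 members were lower, with spike-in scaling 7, and without eIF6 shRNA replicate 2 there were 12. As given above, the summed stellate cell and fibroblast markers were lower in all eIF6 shRNA arrays, and their part in these results was not tested.

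Actin cytoskeleton genes and targets of the actin-sensing factors SRF and YAP were tested as 1 list. Of 45 genes, 17 were called lower (37.8%, against 12.3% of all genes) and 3 higher (6.67%, against 11.8%), with a median of -0.24. Myl9, a regulatory light chain of smooth muscle myosin, had 14.14, 14.25, 14.22 and 14.17 against 12.69, 12.40, 12.84 and 12.56. It fell by 1.57 (SE 0.11, adjusted p = 9.2e-08) and by 3.16 on polysomes, and this difference between fractions was called (1.59, adjusted p = 9.8e-05). Itga5, the fibronectin receptor subunit integrin alpha 5, fell by 1.16 (SE 0.17). In the other direction, Ankrd1, a YAP target, had 12.87, 13.07, 13.09 and 12.93 in scramble cells and 14.04, 14.16, 14.22 and 14.17 in eIF6 shRNA cells, a rise of 1.16 (SE 0.11, adjusted p = 1.8e-06). Cnn1, calponin 1, rose by 1.34 (SE 0.19).

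mRNAs of cytosolic ribosomal proteins had small changes, mostly above 0. Of 80 cytosolic ribosomal protein genes, 28 were called higher (35%, against 11.8% of all genes) and 2 lower, with a median change of 0.16. On polysomes the median of the same genes was 0.014, with 1 called lower and 0 higher. The count depended on the scaling, with 48 higher and 0 lower at a median of 0.48 when arrays were scaled to the 75th percentile, and 0 called in either direction at a median of 0.22 with spike-in scaling. Without eIF6 shRNA replicate 2, 22 were higher and 1 lower. The median was positive under each of these settings. Proteins of the large subunit had a median of 0.19 and those of the small subunit a median of 0.10. Many ribosomal protein genes have near-identical pseudogenes, whose transcripts the probes may also bind.

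Rpl21 rose most, with 10.17, 10.32, 10.38 and 10.45 in scramble cells and 11.03, 11.03, 11.04 and 11.13 in eIF6 shRNA cells. Its change was 0.72 (SE 0.10, adjusted p = 8.5e-05) against -0.06 on polysomes, and the difference was called (0.78, adjusted p = 0.0092). In limma's test with shRNA and number as a replicate block, it was not called (adjusted p = 0.089). Of the 80 genes, only 2 had a called difference with the subpolysomal change above, against 1.11% of all genes. Rps3, a protein at the mRNA entry of the small subunit, rose by 0.58 (SE 0.11), from 13.76 to 13.99 to 14.32 to 14.59. The 2 genes called lower were Rps24 (-0.33, SE 0.10) and Rps2 (-0.22, SE 0.07), and Rps2 turned to 0.035 with scaling to the 75th percentile. Rps6, the ribosomal protein that S6 kinase phosphorylates under insulin, is named after its values were seen. It lay at 15.33 on all 4 scramble arrays and at 15.72 to 15.81 with eIF6 shRNA, a change of 0.45 (adjusted p = 0.00059) against -0.04 on polysomes, and the difference was called (adjusted p = 0.038).

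Ribosomal protein mRNAs classically begin with a 5′ terminal oligopyrimidine tract, a C followed by more pyrimidines, through which mTOR controls their entry into polysomes. The tract was searched at the annotated start of each gene in RefSeq (GRCm38.p6) as a C at the first base and at least 4 more pyrimidines. It was present in 14 of 59 ribosomal protein genes with an annotated start (23.7%) and in 813 of 27025 gene symbols (3.01%). An annotated start can lie some bases from the start used in these cells, so a missing tract says little. Stretches of 5 of the 14 genes are shown to let the tract be seen, from 10 bases before the start to 20 bases from it on the coding strand, with the tract in capitals.
Rps6: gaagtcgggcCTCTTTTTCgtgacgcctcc
Rpl15: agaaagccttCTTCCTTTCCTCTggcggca
Rpl14: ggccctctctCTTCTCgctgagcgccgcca
Rpl38: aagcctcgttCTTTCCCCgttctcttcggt
Fau: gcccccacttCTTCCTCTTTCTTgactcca
Of these, Rps6 (0.45), Rpl15 (0.36) and Rpl14 (0.39) were called higher in subpolysomes, and Rpl38 and Fau were not called. Over the 14 genes with the tract, 6 were called higher and 0 lower, with a median change of 0.21. Over the 45 genes without it, 17 were called higher and 2 lower, with a median of 0.18. Of all 80 ribosomal protein genes 35% were called higher, against 11.8% of all genes. Genes with and without the tract were not tested against each other.

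Of 55 initiation and elongation factors, 10 were called higher (18.2%, against 11.8% of all genes) and 5 lower (9.09%, against 12.3%), with a median of -0.02. The rises included the eIF3 complex, the scaffold that joins the 40S subunit to the mRNA, with 6 of its 12 subunits called higher, 0 lower and a median of 0.36. Eif3f had 15.32, 15.15, 15.31 and 15.57 against 16.07, 16.07, 16.04 and 16.01, a change of 0.71 (SE 0.09, adjusted p = 2.5e-05). Eif3k rose by 0.63 (SE 0.08) in subpolysomes against 0.13 on polysomes, and the difference was called (0.50, adjusted p = 0.034). The falls included Eif1, a factor of start codon selection (-0.45, SE 0.10), and Eif4e3, a relative of the cap-binding protein (-1.14, SE 0.14). eIF3 subunits were grouped after their values were seen.

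Of 86 ribosome biogenesis factors, 6 were lower and 4 higher, where 24.2% of all genes were called in either direction. Nsa2, a factor of 60S maturation, rose by 0.72 (SE 0.07), from 10.87 to 11.03 to 11.62 to 11.73, and Imp3, of 40S maturation, rose by 0.69 (SE 0.09), and both rose more than on polysomes (differences 0.42 and 0.61, adjusted p = 0.041 and 0.03). Nop56, a core protein of box C/D ribonucleoproteins, fell by 0.56 (SE 0.13), and Polr1a, the large subunit of RNA polymerase I, fell by 0.49 (SE 0.09). Of 23 aminoacyl-tRNA synthetase genes 0 were lower and 2 higher, among them Qars (0.76, SE 0.19). Of 76 mitochondrial ribosomal protein genes 8 were lower (10.5%, against 12.3% of all genes) and 5 higher (6.58%, against 11.8%). Mrpl41 (-0.49), Mrpl18 (-0.42), Mrpl23 (0.48) and Mrpl45 (0.34) were among them.

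Lysosomes break down proteins, lipids and glycans in an acidic lumen, and 22 of 58 lysosomal genes were called higher (37.9%, against 11.8% of all genes) and 1 lower, with a median of 0.38. The median stayed above 0 with spike-in scaling, at 0.12, where no member was called. Ctsh, the protease cathepsin H, had 11.41, 11.67, 11.62 and 11.40 against 12.71, 12.58, 12.64 and 12.56, a rise of 1.10 (SE 0.09, adjusted p = 3.8e-07) with no overlap between the groups. Of 13 subunits of the vacuolar ATPase, the pump that acidifies the lumen, 5 were higher and 0 lower, and of 9 cathepsins 4 were higher and 0 lower. The median of the list on polysomes was 0.36. The exception was Gla, alpha-galactosidase A, with 15.89, 15.80, 15.62 and 15.70 against 15.33, 15.08, 15.14 and 15.03, a fall of 0.61 (SE 0.10, adjusted p = 0.00027) against 0.00 on polysomes (difference -0.61, adjusted p = 0.037).

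**Figure D4:**
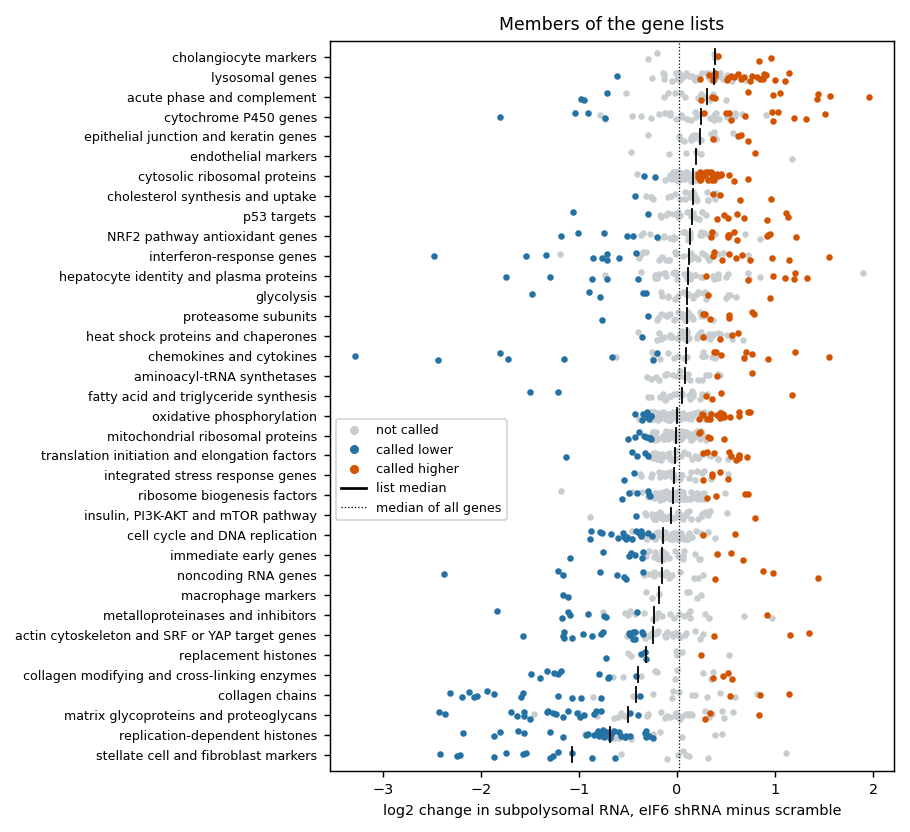
Change in subpolysomal RNA (x axis, log2, eIF6 shRNA minus scramble) of every tested member of the 36 gene lists, ordered by the list median (black bar). Points are genes, coloured by whether they were called lower, called higher or not called, and the dotted line is the median of all genes (0.025). Stellate cell and fibroblast markers (median -1.07) and replication-dependent histones (median -0.69) lie lowest.

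Of 46 genes of hepatocyte identity and plasma proteins, 7 were called higher and 5 lower, against 11.8% and 12.3% of all genes. The median of 0.11 turned to -0.10 with spike-in scaling. Ttr, transthyretin, which carries thyroid hormone and retinol-binding protein, had 7.21, 7.37, 7.33 and 7.38 against 8.73, 8.69, 8.60 and 8.59, a rise of 1.33 (SE 0.10, adjusted p = 2e-07). Cebpa, a transcription factor of hepatocyte differentiation, rose by 1.20 (SE 0.13), from 6.73 to 7.08 to 7.95 to 8.18. Apoc2, the activator of lipoprotein lipase, fell by 1.30 (SE 0.11), and C4b, a complement protein, by 0.72 (SE 0.24). Of 45 cytochrome P450 genes, 11 were higher and 4 lower, with a median of 0.25 that also turned with spike-in scaling (-0.073). Cyp1b1 fell by 1.81 (SE 0.12), from 10.84 to 11.01 to 8.88 to 9.34. Cyp2c55 fell by 1.04 (SE 0.11) while Cyp2c67 rose by 1.31 (SE 0.31), and the genes of this subfamily are near-identical in part. Cyp2s1, which is expressed in epithelia, rose by 0.97 (SE 0.07).

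Of 26 acute phase and complement genes, 10 were higher and 3 lower, against 11.8% and 12.3% of all genes. Their median was 0.31 against 0.0040 on polysomes. On polysomes 9 were called higher and 6 lower, against 11.1% and 10.7% of all genes. The difference between the fractions was called for 2 of the 26, with the subpolysomal change above, against 1.11% of all genes. C2, a complement component, had 10.71, 11.02, 11.27 and 10.87 against 12.37, 12.43, 12.34 and 12.49, a rise of 1.44 (SE 0.26, adjusted p = 0.00086). Lbp, the lipopolysaccharide-binding protein, rose by 1.42 (SE 0.21). Saa3, serum amyloid A3, fell by 0.98 (SE 0.11) and C1s, a protease of the classical complement pathway, by 0.95 (SE 0.15). Of 34 chemokines and cytokines, 9 were higher and 8 lower. Beside Il6, the chemokine Cxcl12 fell, from 10.23 to 10.37 to 8.43 to 8.55 (change -1.80, SE 0.14), whereas the interferon-induced chemokine Cxcl10 rose by 1.55 (SE 0.16) and Il18, interleukin 18, by 1.20 (SE 0.10). Of 45 interferon-response genes, 10 were higher and 9 lower. Ifi47, an interferon-induced GTPase, rose by 1.14 (SE 0.14) and Ifi203 fell by 0.86 (SE 0.16). The immunoproteasome subunit Psmb8 fell by 0.77 (SE 0.14) in subpolysomes and by 1.82 on polysomes, a difference that was called (1.05, adjusted p = 0.012).

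Lipid synthesis is the process the study centres on. Of 29 genes of fatty acid and triglyceride synthesis, 4 were higher and 2 lower, where 24.2% of all genes were called in either direction, and the median was 0.054. Fasn, fatty acid synthase, had 6.96, 7.20, 7.19 and 7.24 in scramble cells and 6.86, 7.02, 7.13 and 7.09 in eIF6 shRNA cells, a change of -0.12 (SE 0.10, adjusted p = 0.43). Srebf1, the lipogenic transcription factor SREBP1, changed by 0.16 (adjusted p = 0.74) and Acaca, acetyl-CoA carboxylase 1, by -0.03 (adjusted p = 0.92). These last 3 genes are named for their place in lipogenesis, outside the rule for named genes. Lpin3, a phosphatidate phosphatase, fell by 1.50 (SE 0.14), from 6.85 to 7.07 to 5.19 to 5.94, and Dgat2, which completes triglycerides, rose by 0.35 (SE 0.11). Of 27 genes of cholesterol synthesis and uptake, 4 were higher and 1 lower, also beside 24.2% of all genes called. Mvd, mevalonate diphosphate decarboxylase, rose by 0.96 (SE 0.11).

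Of 28 glycolytic genes, 5 were lower and 2 higher, again beside 24.2% of all genes called in either direction. Pfkfb4, which sets the level of the glycolytic activator fructose-2,6-bisphosphate, had 10.61, 10.57, 10.61 and 10.90 against 9.20, 9.15, 9.28 and 9.16. It fell by 1.48 (SE 0.10, adjusted p = 7.4e-08), more than on polysomes (difference -0.65, adjusted p = 0.028), and Pklr, the liver pyruvate kinase, rose by 0.94 (SE 0.17). Of 90 genes of oxidative phosphorylation, 17 were higher and 9 lower around a median of -0.0029. Ndufa10, a subunit of complex I, rose by 0.75 (SE 0.08) and Cox7a2l, a factor of respiratory supercomplexes, by 0.72 (SE 0.12). Ndufb4 (-0.36, SE 0.11) and Cox6a2 (-0.43, SE 0.13) were among the falls. In the insulin, PI3K-AKT and mTOR pathway 2 of 46 genes were called, against 24.2% of all genes, and these were Akt1 lower (-0.42, SE 0.13) and Prkaa2, an AMP-activated kinase subunit named after its value was seen, higher (0.79).

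Among stress genes, 8 of 28 p53 targets were higher and 2 lower, against 11.8% and 12.3% of all genes. The rises included Perp, a desmosomal protein of apoptosis (1.11, SE 0.11), and Sulf2, a heparan sulphate editing enzyme (1.13, SE 0.17). Mdm2, the ubiquitin ligase that degrades p53 and is also its target, went the other way, with 17.51, 17.55, 17.52 and 17.48 against 16.40, 16.35, 16.53 and 16.51, a fall of 1.07 (SE 0.07, adjusted p = 8e-08). Tnfrsf10b, a death receptor, fell by 0.30 (SE 0.07). Of 43 NRF2 pathway antioxidant genes, 11 were higher and 6 lower. Nqo1, a quinone reductase, fell by 1.19 (SE 0.16) and Cbr3, a carbonyl reductase, by 1.01 (SE 0.10), less than on polysomes for Cbr3 (difference 0.78, adjusted p = 0.012), while the glutathione transferases Gsta4 (1.21, SE 0.17) and Gstm5 (0.94, SE 0.07) rose. Of 33 integrated stress response genes, 5 were higher and 2 lower, where 24.2% of all genes were called in either direction. Atf4, the central transcription factor of this response, fell by 0.54 (SE 0.15), from 15.35 to 15.78 to 14.91 to 15.08, while Gdf15, a secreted stress cytokine, rose by 0.52 (SE 0.15).

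Of 33 immediate early genes, which respond to stimuli within minutes, 7 were lower and 3 higher, against 12.3% and 11.8% of all genes. Egr2 fell by 0.75 (SE 0.08), from 10.79 to 10.89 to 10.04 to 10.20, and Klf2 by 0.47 (SE 0.10), whereas Klf4 (0.67, SE 0.12) and Atf3 (0.55, SE 0.12) rose. Of 37 proteasome subunit genes, 7 were higher (18.9%) and 2 lower (5.41%), among them Psmd10 (0.78, SE 0.09). Of 48 heat shock proteins and chaperones, 4 were higher (8.33%) and 1 lower (2.08%), with Hspb11 at 0.62 (SE 0.12) and Dnajb4 at -0.35 (SE 0.12). Among 22 genes of epithelial junctions and keratins 4 were higher and 0 lower, with Esrp2, an epithelial splicing regulator, at 0.72 (SE 0.13). Of 8 cholangiocyte genes 3 were higher and 0 lower, with the liver transcription factor Onecut1 at 0.95 (SE 0.15). Of 9 macrophage genes 2 were lower, with Csf1r, the receptor of colony stimulating factor 1, at -1.17 (SE 0.13), and of 7 endothelial genes 1 was higher, Vwf (0.79), named after its value was seen.

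Noncoding RNAs are not translated and thus bear on what the fraction holds beside mRNA. Of 26 noncoding RNA genes, 8 were lower and 4 higher, against 12.3% and 11.8% of all genes, with a median of -0.16. The imprinted RNAs Peg13 and H19 fell by 1.21 (SE 0.11) and 1.16 (SE 0.21). Mirg, a microRNA host RNA of the imprinted region of Dlk1, had 6.89, 6.98, 6.65 and 6.31 against 8.50, 8.07, 8.05 and 7.95, a rise of 1.43 (SE 0.20, adjusted p = 0.00012). Neat1, the scaffold RNA of nuclear paraspeckles, rose by 0.98 (SE 0.08) in subpolysomes and by 1.43 on polysomes.

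Most of the genes that changed in subpolysomes either changed the same way on polysomes or were not called there. On polysomes 10.7% of genes were called lower and 11.1% higher. Of the 2390 genes lower in subpolysomes, 1482 were also lower on polysomes, 903 were not called there and 5 were higher. Of the 2294 genes higher in subpolysomes, 1307 were also higher on polysomes, 981 were not called and 6 were lower. The difference between the fractions itself was called for 214 genes with the subpolysomal change above the polysomal change (1.11% of all genes) and for 78 genes with it below (0.403%). With shRNA and number as a replicate block, these counts were 102 and 27. Of the genes called without the block, 81 were lower in subpolysomes with a deeper fall on polysomes, 70 were higher in subpolysomes with a rise beyond the polysomal change, 45 were lower with a fall beyond it and 16 were higher with a larger rise on polysomes.

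The genes with opposite changes, called in both fractions and for the difference, were 6 that rose in subpolysomes and fell on polysomes and 5 that did the reverse. Lcn2, the iron-siderophore binding protein lipocalin 2, had 9.48, 9.50, 9.47 and 9.51 in subpolysomes of scramble cells and 9.88, 9.85, 9.89 and 9.90 in those of eIF6 shRNA cells. It rose by 0.39 there (SE 0.10, adjusted p = 0.011) and fell by 0.50 on polysomes. Mogat2, an acyltransferase of triglyceride synthesis, rose by 0.44 (SE 0.08) and fell by 0.52 on polysomes, a difference of 0.95 (adjusted p = 0.00061). Adra2a, an adrenergic receptor (0.38 and -0.52), Blvrb, a biliverdin reductase (0.31 and -0.52), Hsd17b10, a mitochondrial dehydrogenase (0.36 and -0.32), and Ola1, an ATPase (0.31 and -0.20), had the same pattern of subpolysomal and polysomal change. In limma's test with shRNA and number as a replicate block, the difference stayed called for Mogat2 (adjusted p = 0.027) and Adra2a (0.047). It was not called there for Lcn2 (0.053), Blvrb (0.1), Hsd17b10 (0.081) and Ola1 (0.11).

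In the reverse direction, Bdh2, a dehydrogenase of siderophore and ketone body metabolism, had the largest difference. It had 9.89, 9.87, 9.70 and 9.72 in subpolysomes of scramble cells and 8.07, 8.21, 8.05 and 8.43 in those of eIF6 shRNA cells, a change of -1.61 (SE 0.10, adjusted p = 6.8e-08), while it rose by 0.38 on polysomes. The difference was -1.98 (SE 0.15, adjusted p = 1.6e-05). Pde4c, a cyclic AMP phosphodiesterase, fell by 0.54 (SE 0.11) and rose by 0.65 on polysomes. Prdm2, a zinc finger protein of the PR domain family, changed by -0.63 and 0.38, and the histone genes Hist2h3c2 (-0.67 and 0.58) and Hist2h2be (-0.59 and 0.36) completed the group. With the replicate block, limma's test kept the difference for all of this group except Hist2h2be (adjusted p = 0.063). The count of such genes is small, and the polysomal and subpolysomal arrays were normalized together, so that a shift of all signals in 1 fraction is set to 0 by construction.

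**Figure D5:**
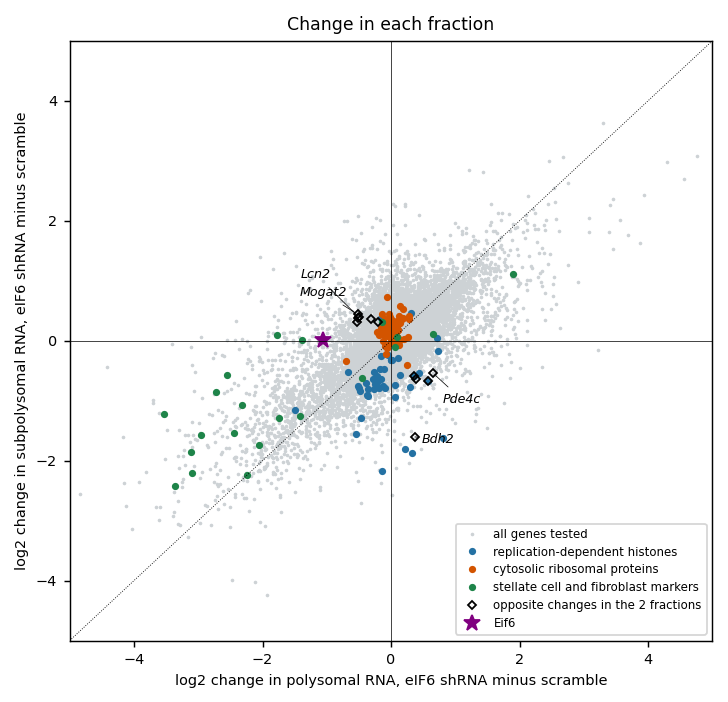
Change in polysomal RNA (x axis) against change in subpolysomal RNA (y axis), both log2 of eIF6 shRNA minus scramble, for the genes tested, with 6 genes beyond the plotted range. Replication-dependent histones lie below the dotted line of equal change (medians -0.69 and -0.16), ribosomal proteins slightly above it, stellate cell and fibroblast markers mostly above it on the left, and Eif6 (star) at 0.02 in subpolysomes and -1.05 on polysomes.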

How the data were processed

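The deposited intensity values are Agilent Feature Extraction processed signals of each array, already corrected for background by the scanner software, and the deposited log2 values are the authors' normalized table, used as an alternative. Software versions differ between the labels (10.7.7.1) and the file headers (10.7.3.1). Intensities of 16 arrays, from 44397 spots averaged to 39429 probes, were filtered to the 25260 probes that cleared background on 2 or more arrays of a group, put on the log2 scale, quantile normalized together and summarised as the mean of all kept probes with 1 gene name, which left 19365 genes. Limma (3.58.1, R 4.3.3) was fitted to 4 group means over all 16 arrays, with Benjamini-Hochberg adjustment. Precision is limited by the number of arrays, and p-values measure the spread between these replicates. On simulated data for the subpolysomal change in 19338 genes, 62 of 67 genes changed by 2, 52 of 67 changed by 1 and 22 of 66 changed by 0.5 on the log2 scale were recovered, with 8 false calls. Far fewer genes were changed in the simulation than were called in these data (24.2%), and its noise was independent between genes. These rates therefore hold for the simulated setting only.

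Named genes were the 10 largest falls and rises among called genes detected on all 8 subpolysomal arrays without overlap, the 6 largest bounds in each direction, the called list members with the largest change in each direction (up to 2 for lists with 10 or more called members), genes with opposite changes in the fractions, and Eif6. Clone and locus identifiers were left out. Some genes that this rule names are not reported here. The members and the gene lists were chosen with earlier results of these data known.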

Additional observations from a re-analysis of the deposited data

Results flagged for a closer look

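For 29 of the 144 named genes, the change between shRNAs differed between subpolysomes and polysomes by limma's test of the difference at an adjusted p under 0.05. Differences are subpolysomal change minus polysomal change in log2 units. Among genes that fell in subpolysomes, the difference was below 0 for Hist1h2ac (-2.04), Hist3h2ba (-2.02), Bdh2 (-1.98), Hist2h3c2 (-1.25), Pde4c (-1.19), Prdm2 (-1.01), Hist2h2be (-0.95), Pfkfb4 (-0.65) and Gla (-0.61). It was above 0, with a deeper fall on polysomes, for Lox (2.00), Myl9 (1.59), Psmb8 (1.05), Lce1c (0.88), Lce1f (0.82), Cbr3 (0.78) and Col6a3 (0.74). Among genes that rose in subpolysomes, it was above 0 for Mlh3 (1.38), Mogat2 (0.95), Adra2a (0.90), Lcn2 (0.89), Blvrb (0.83), Rpl21 (0.78), Hsd17b10 (0.68), Imp3 (0.61), Ola1 (0.51), Eif3k (0.50) and Nsa2 (0.42), and below 0 for Sbk3 (-1.37). Sbk3 was detected on no scramble array of either fraction and Hist1h2ac on 2 scramble arrays and 0 eIF6 shRNA arrays of polysomes, so their differences rest on signal near background. For Eif6, which was not called in subpolysomes, it was 1.07.

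In 10 of 288 groups of 4 arrays, 1 array stood apart from the other 3 by Dixon's test, where chance alone gives about 1 in 20. Scramble replicate 4 stood apart for Cebpa (7.08, others 6.73 to 6.77), Egr2 (10.79, others 10.88 to 10.89), Hist1h2ac (6.36, others 6.97 to 7.09), Mlh3 (4.94, others 5.56 to 5.63) and Pfkfb4 (10.90, others 10.57 to 10.61), and scramble replicate 2 for Adra2a (6.17, others 6.39 to 6.44). With eIF6 shRNA it was replicate 2 for Col12a1 (4.62, others 5.21 to 5.33) and Hoxb2 (6.70, others 6.62 to 6.63), replicate 1 for Kcnmb4 (3.28, others 2.14 to 2.31) and replicate 4 for Rpl21 (11.13, others 11.03 to 11.04).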

How the results depend on the processing

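Spike-in scaling had the largest effect, with 346 genes lower and 44 higher in subpolysomes, and differences between the fractions called below for 2 genes and above for 32. Under the other settings the counts of genes lower and higher stayed within 1.5 times 2390 and 2294. Differences between fractions numbered 130 below and 340 above with each fraction quantile normalized alone, 177 and 390 with normexp background correction, 408 above with scaling to the 75th percentile and 142 above with no filter. Asking for 3 of 4 arrays gave 137 genes seen with scramble shRNA only and 60 with eIF6 shRNA only. When each array was left out in turn, the counts ranged from 2000 to 2345 lower, from 1862 to 2276 higher, from 53 to 78 with the difference below and from 149 to 211 with it above, and genes seen with 1 shRNA only ranged from 69 to 143 for scramble and from 19 to 48 for eIF6 shRNA. The cause of these shifts was not tested.

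Of 144 named genes, 42 kept direction and call with spike-in scaling, 99 lost the call and 3 reversed, which were H2afy (-0.033), Rfc4 (-0.0067) and Eif6 (-0.22). Scaling to the 75th percentile reversed Rps2 (0.035), and 10 lost the call. Eif6, which was not called, had a change of up to 0.0575 when 1 array was left out, and just below 0 without scramble replicate 1 (-0.0060) or 2 (-0.00062) and without eIF6 shRNA replicate 1 (-0.023) or 3 (-0.028). Same-numbered subpolysomal arrays of the 2 shRNAs had r from -0.187 to 0.19 over 4 pairs, against -0.285 to 0.312 over 12 pairs from different slides. So few pairs cannot tell whether the numbers pair the samples. With the replicate number as a block, 2310 genes were lower and 2257 higher, 67 differences lay below and 219 above, and 5 named genes lost the call. Arrays of subpolysomes and polysomes with the same shRNA and number had r from -0.157 to 0.0296 over 8 pairs. With shRNA and number as a replicate block, chosen after seeing the data, 27 differences between fractions lay below and 102 above, and 11 of 29 named genes kept the called difference. These were Eif6, Lox, Myl9, Mlh3, Mogat2, Adra2a, Bdh2, Hist2h3c2, Hist3h2ba, Pde4c and Prdm2. With the slide as a block, 2616 genes were lower and 2594 higher. Counts of the gene lists under each setting were added after seeing the data. Signal over background limits genes seen with 1 shRNA only to bounds.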
